A study of Mus musculus with 26 samples.

Results

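The proteasome is the barrel-shaped protease that degrades ubiquitin-tagged proteins, and its subunits are encoded by genes whose symbols begin with Psm. Members were the probe sets that carry a single gene symbol beginning Psma, Psmb, Psmc, Psmd, Psme or Psmf followed by a digit, with the brightest probe set standing for each gene. The rule found 44 genes among 12393 genes with a probe set of their own symbol, and 43 of them were among the 7432 genes bright enough to be tested. The gene left out, Psma8, encodes the testis form of an alpha ring subunit, and its probe set averaged 2.68 on the log2 scale. Psmb11, the thymus-specific catalytic subunit, had no probe set of its own, and the probe set for Psme2 also names Psme2b, so neither was analysed here. Psmc3ip and Psme3ip1 fit the rule by name only: Psmc3ip encodes a meiotic recombination factor, and Psme3ip1 a protein named for binding an activator. Both were kept as members and are described apart from the subunits.

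RNA came from 26 samples of S49 cells, a mouse T lymphoma line, with 1 Affymetrix array for each. D- is the deathless variant of S49, known to survive the raised cAMP that kills the wild type (WT). Each line gave 4 arrays of untreated cells and 3 arrays at each of 2, 6 and 24 h after 8-CPT-cAMP was added, so that the groups were D- untreated, D- 2 h, D- 6 h and D- 24 h, and WT untreated, WT 2 h, WT 6 h and WT 24 h. 8-CPT-cAMP is a cell-permeant cAMP analogue that activates protein kinase A. The labelled dose of 100 mM may be a unit error, and the titles of the treated WT samples say untreated although their source and description say treated. The labels place all untreated samples at time 0 and name no untreated cells at 2, 6 or 24 h. Time in culture and treatment therefore cannot be told apart in any comparison with untreated cells. The labels give no clonal origin for either line beyond the line name. They call the replicates biological but do not describe separate cultures or days, so p-values here measure the spread between these samples.

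In the complete enzyme a core particle, built of alpha and beta rings, is capped by a regulatory particle whose ATPase ring unfolds the substrate and whose non-ATPase subunits bind and remove ubiquitin. In lymphoid cells and after interferon, the catalytic subunits Psmb5, Psmb6 and Psmb7 can be replaced by Psmb8, Psmb9 and Psmb10 to form the immunoproteasome, known for making peptides that fit MHC class I. The chaperones Psmd5, Psmd9 and Psmd10 help to assemble the base of the regulatory particle, and Psme1, Psme3 and Psme4 encode subunits of other caps. When proteasome activity is short, mammalian cells are known to raise many subunit genes together through the transcription factor Nfe2l1 acting at antioxidant response elements.

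Promoters from RefSeq, on mouse build GRCm38.p6 and spanning 250 bases before to 50 bases after each start, were found for 37 of the 44 members. The antioxidant response element core TGACNNNGC, searched on both strands, occurred in 6 of 37 members (16.2%), against 17.1% of the promoters of tested genes and 14% of all promoters. The stretches of 60 bases before the starts of Psmb5, Psmb6 and Psmd9 are shown because each holds that core on the strand of the gene within this stretch, in capitals: Psmb5 at chr14:54617996-54618055 on the minus strand, Psmb6 at chr11:70525297-70525356 on the plus strand and Psmd9 at chr5:123228130-123228189 on the plus strand.
Psmb5: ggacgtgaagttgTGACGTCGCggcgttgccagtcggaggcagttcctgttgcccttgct
Psmb6: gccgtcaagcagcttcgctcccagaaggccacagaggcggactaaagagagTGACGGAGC
Psmd9: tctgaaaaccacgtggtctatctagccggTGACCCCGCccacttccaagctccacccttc
The core begins at position -47 in Psmb5, -9 in Psmb6 and -31 in Psmd9, counted from the annotated start.

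The whole cAMP response element TGACGTCA, also searched on both strands, was in 0 of 37 member promoters, against 3.7% of those of tested genes and 2.03% of all. Its shorter form TGACG, which lies inside the whole element and overlaps the antioxidant core in Psmb5, Psmb6 and Psme4, was in 17 of 37 members (45.9%), against 38.1% of tested genes and 23.0% of all promoters. CCAAT was in 15 of 37 (40.5%), against 43.3% and 41.1%. The interferon-stimulated motif, searched as GAAA, 2 free bases and GAAA, was in 4 of 37 (10.8%), against 3.67% and 3.99%. These 4 were Psmb3, Psmd4, Psmd9 and Psme1, of which only Psme1 is counted with the immunoproteasome genes below. A match describes the letters in this window and says nothing of binding, and motifs outside it were not searched. The 225 bases between the starts of Psmb9 and Tap1, which are transcribed away from each other, are shown because they lie between a member and a related gene whose values are given side by side below. They lie at chr17:34187331-34187555, are printed on the strand of Psmb9, and have in capitals TGACG as it reads on the opposite strand.
Psmb9 to Tap1: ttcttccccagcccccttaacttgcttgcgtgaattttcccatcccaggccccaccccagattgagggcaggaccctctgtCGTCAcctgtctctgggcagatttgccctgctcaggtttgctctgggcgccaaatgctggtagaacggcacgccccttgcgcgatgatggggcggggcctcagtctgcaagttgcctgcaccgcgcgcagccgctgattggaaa

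The arrays of each group correlated with each other at 0.972 to 0.995 over all probe sets. All 7 T cell markers measured were above a log2 intensity of 5 in every group mean, and the log2 of their summed intensity was 13.95 to 15.3. The same sum was at most 7.97 for B cell, myeloid, erythroid and stromal markers, most of which were below 5. Some markers changed with treatment: at 24 h, 3 of the 7 T cell markers were higher and none lower in D- (median log2 change 0.837), and 5 were higher and 1 lower in WT (median 0.875). Among the other lists, Itgam rose by 1.42 in D- and 2.19 in WT at 24 h, Cd22 by 0.62 in D- at 6 h and 0.87 in WT at 24 h, and Pdgfrb by 2.89 at 6 h and 1.11 at 24 h in WT, whereas Cd79a fell by 0.47 in D- at 24 h. The mean log2 levels of Itgam, Cd22 and Pdgfrb in the groups where they rose lay between 4.632 and 6.767, and their part in the results was not tested. In cultures of many cells, fewer cells of one state and less RNA per cell cannot be told apart. Along the first axis of variation between replicates, which held 38.8% of the variance, the arrays fell into a set of 10 and a set of 16. Every group had arrays in both: replicate 1 of each treated group and replicates 1 and 2 of each untreated group made up the set of 10. The labels do not say what separates these sets, so counts below are also given with the set as a block and within each set. Within the set of 10, each comparison with untreated cells had 1 treated array against 2 untreated arrays. The difference between 3' and 5' Gapdh probe sets, a sign of RNA quality, was 0.0961 ± 0.196 in WT at 24 h (SD, n = 3) and -0.053 ± 0.147 in untreated WT (SD, n = 4), on the log2 scale. This difference ran from -0.2462 to -0.1134 in the set of 10, except for D- untreated replicate 2 at -0.01777. In the set of 16 it ran from -0.08714 to 0.2738. It thus went with the array set, and the part of RNA quality in the results was not tested.

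After 24 h of 8-CPT-cAMP, more proteasome genes were lower than higher in both lines. At 24 h in D- cells, 12 of the 43 members tested were lower and 4 were higher, and in WT cells 26 were lower and 5 higher, by limma with Benjamini-Hochberg adjusted p under 0.05 over all probe sets. Over all 7432 genes, 17.6% were lower and 17.1% higher in D- cells, and 27.5% were lower and 26.4% higher in WT cells. The members' median log2 change was -0.21 in D- cells and -0.43 in WT cells, whereas the median of all tested genes was -0.021 in D- and -3e-06 in WT. All 12 members lower in D- were also lower in WT, which is 46.2% of the WT list. This overlap was not counted over all genes. The lines share no control arrays. With the array set as a block the counts were 15 lower and 5 higher in D-, and 29 lower and 6 higher in WT. Within the set of 16 they were 19 lower and 5 higher in D-, and 26 lower and 7 higher in WT. Within the set of 10, 2 were lower in D- and 10 in WT with none higher in either, and the median change was -0.0244 in D- and -0.364 in WT.

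**Figure D1:**
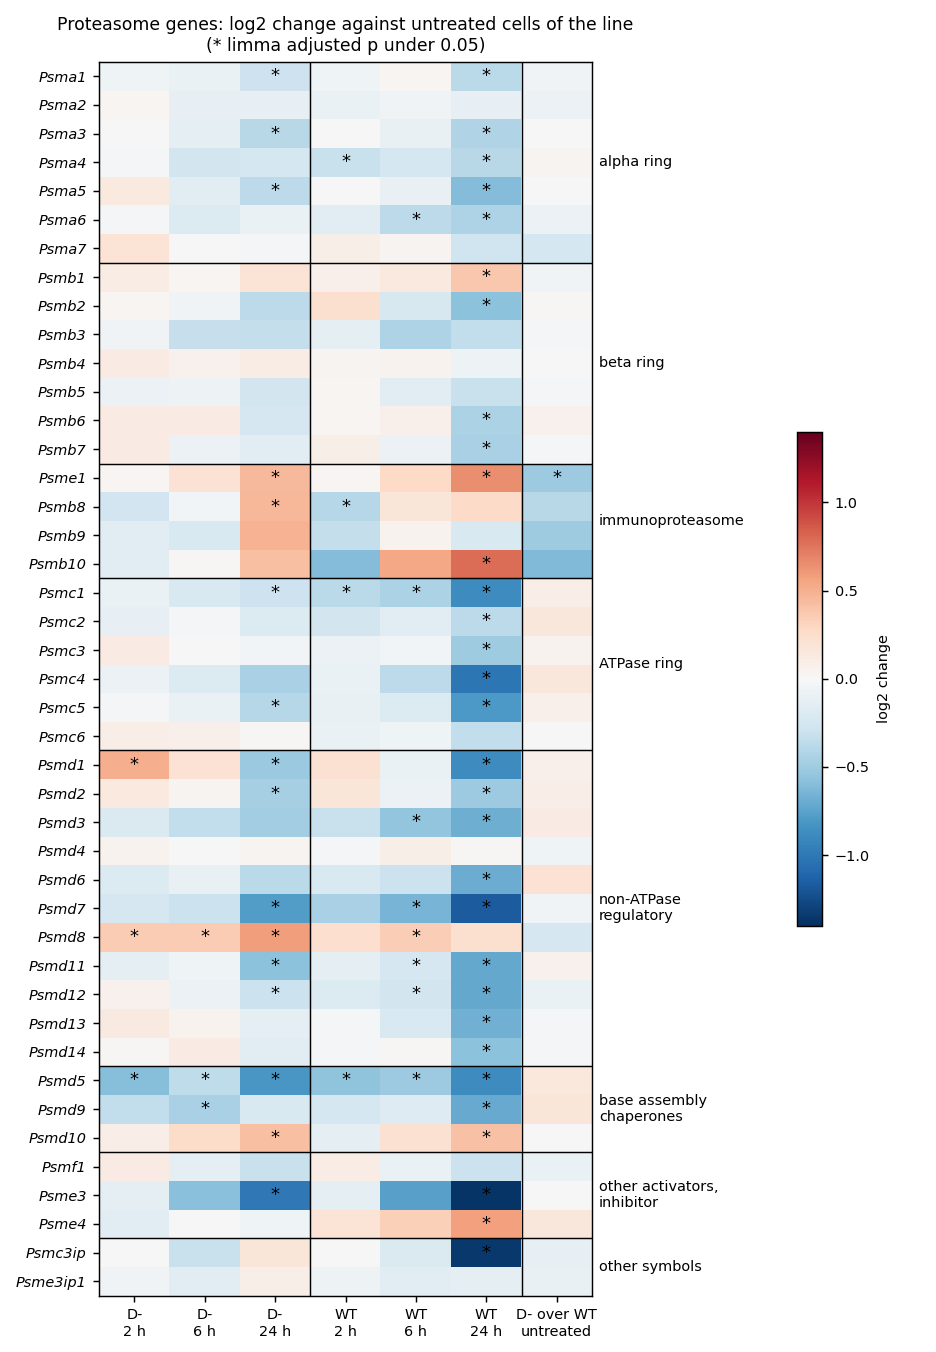
Each row is 1 of the 43 members tested, grouped by role, and each column 1 comparison: D- at 2, 6 and 24 h, WT at 2, 6 and 24 h, and untreated D- over untreated WT. Colour is the log2 change and an asterisk marks a limma adjusted p under 0.05. The darkest blue cells lie in the WT 24 h column, where 26 members were lower, against 12 in the D- 24 h column.

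Fewer proteasome genes changed at the early times. At 2 h, 1 member was lower and 2 higher in D- cells, where 13.3% of all genes were lower and 9.06% higher, and 4 were lower and none higher in WT cells, where 13.9% were lower and 11.2% higher. At 6 h, 2 members were lower and 1 higher in D- cells, against 15.6% and 16.2% of all genes, and 7 were lower and 1 higher in WT cells, against 19.1% in each direction. The WT genes lower at 2 h were Psmd5, Psmc1 and Psmb8, described below, and the alpha ring gene Psma4 (-0.31 ± 0.11, limma adjusted p = 0.0419). The Psma4 call was lost with median centring and without any 1 of 5 arrays. At 6 h the largest falls called in WT were those of Psmd7, the lid subunit Psmd3 (-0.55 ± 0.19, limma adjusted p = 0.0261), Psmd5 and Psmc1. Psme3 had a lower value, -0.76, that did not pass (limma adjusted p = 0.0906). The Psmd3 call was lost without any 1 of 4 arrays. At both early times the share of members called was below that of all genes in both lines: 6.98% in D- at 2 h and at 6 h, 9.3% in WT at 2 h and 18.6% in WT at 6 h, against 22.3%, 31.8%, 25.1% and 38.2% of all genes. At 24 h the share was 37.2% in D-, against 34.7% of all genes, and 72.1% in WT, against 53.8%. The D- share at 24 h therefore lay near that of all genes, and the WT share above it.

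In the core particle, 8 of 14 genes were lower and 1 higher in WT at 24 h, against 27.5% and 26.4% of all genes, with a median log2 change of -0.38. In D-, 3 were lower and none higher, against 17.6% and 17.1% of all genes, with a median of -0.24, so that the share lower in D- lay near that of all genes. The 3 in D-, named after their values were seen, all encode alpha ring subunits: Psma1 (-0.29), Psma3 (-0.38) and Psma5 (-0.37), each also lower in WT (-0.37, -0.42 and -0.61). All 7 alpha ring genes had values below 0 at 24 h in both lines. In the set of 10 the core median in D- was -0.011 on the log2 scale, against -0.29 in the set of 16.

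Psmb7, the constitutive trypsin-like subunit, had log2 intensities of 12.11, 12.20 and 12.15 in WT at 24 h, against 12.57, 12.69, 12.51 and 12.64 in untreated WT. All 3 treated arrays lay below all 4 untreated arrays, and the log2 change was -0.45 ± 0.09 (SE), with a limma adjusted p of 0.000217. In D- its change was -0.16 ± 0.09, adjusted p = 0.189 by limma. Psmb6, the constitutive caspase-like subunit, changed by -0.23 ± 0.12 in D- (limma adjusted p = 0.134) and fell by 0.44 ± 0.12 in WT (limma adjusted p = 0.00284). Psmb5, the constitutive chymotrypsin-like subunit, did not pass in either line, with values of -0.26 in D- and -0.31 in WT. In WT the value with the array set as a block was -0.25 and passed (limma adjusted p = 0.0259).

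A single core gene went the other way and passed the test. Psmb1, a structural beta ring subunit named here after its values were seen, had log2 intensities of 12.28, 12.52 and 12.49 in WT at 24 h, against 12, 12.21, 11.99 and 11.98 in untreated WT. The treated arrays were all higher, and the change was 0.38 ± 0.088 (SE, limma adjusted p = 0.000905). It was 0.19 ± 0.088 in D- (limma adjusted p = 0.0974). Psmb1 was 1 of 4 genes called at 24 h in WT that had another tested probe set not called, beside Psma6, Psme3 and Psme4. Where the brightest probe set of a member was called, no other was called in the opposite direction.

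Most genes of the regulatory particle were lower at 24 h in WT. Of its 17 genes, 7 were lower and 1 higher in D- at 24 h (median log2 change -0.30), and 14 were lower and none higher in WT (median -0.69). Over all genes, 17.6% were lower and 17.1% higher in D-, and 27.5% were lower and 26.4% higher in WT. In WT this covered 5 of 6 ATPase ring genes and 9 of 11 non-ATPase genes, and in D- 2 of 6 and 5 of 11. In the set of 10 arrays the regulatory median was -0.19 in D- and -0.52 in WT, and in the set of 16 it was -0.34 in D- and -0.71 in WT.

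**Figure D2:**
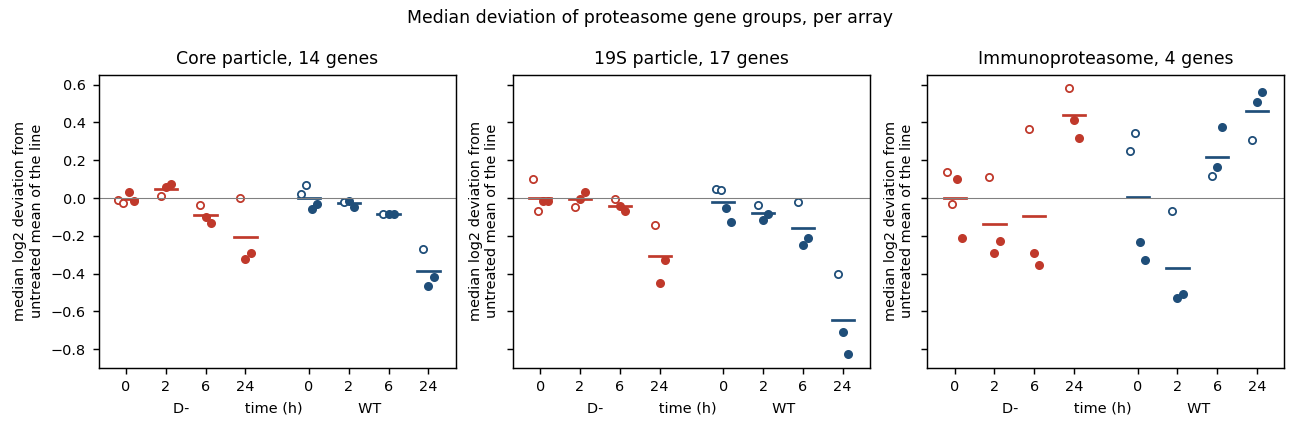
Each point is 1 array, placed at the median over a gene group of the log2 deviation from the mean of untreated cells of the same line; bars are group means. The time axis runs from untreated (0) to 24 h, D- left and WT right, and open points are the arrays of the set of 10. At 24 h the regulatory particle lies below 0 on all arrays of both lines, and the immunoproteasome genes above 0.

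Psmd7, a non-ATPase subunit that pairs with the deubiquitinase Psmd14 in the lid, had the largest fall of the particle in both lines. Its log2 intensity was 10.43, 9.97 and 9.92 in D- at 24 h, against 11.06, 10.68, 10.89 and 10.90 in untreated D-. In WT it was 10.21, 9.75 and 9.37 at 24 h, against 11.22, 11.03, 10.79 and 10.71 untreated. Neither pair of groups overlapped. The change was -0.78 ± 0.17 in D- (limma adjusted p = 0.00138) and -1.16 ± 0.17 in WT (limma adjusted p = 7.44e-06), where the 24 h level was 0.447 times that of untreated cells. Psmd7 had already fallen at 6 h in WT by 0.65 (limma adjusted p = 0.00536). In the set of 10 its 24 h change in D- was -0.44.

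Psmd14 itself, the subunit that strips ubiquitin from substrates, passed at neither 2 h nor 6 h and was lower at 24 h in WT. It had log2 intensities of 11.57, 11.45 and 11.65 in D- at 24 h, against 11.69, 11.64, 11.84 and 11.71 in untreated D-. In WT it had 11.21, 11.04 and 11.25 at 24 h, against 11.78, 11.69, 11.81 and 11.72 untreated. The D- groups overlapped and the WT groups did not. The log2 change was -0.16 ± 0.087 in D- (limma adjusted p = 0.172) and -0.58 ± 0.087 in WT (limma adjusted p = 8.07e-06).

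Psmc1, an ATPase ring subunit, was called at 2 h and at 6 h in WT, where no other gene of the ring passed by its brightest probe set. Dimmer probe sets of the ATPase gene Psmc6 did pass, 1 of them at 2 h (-0.78, limma adjusted p = 0.034) and 2 at 6 h (-0.84 and -0.57, limma adjusted p of 0.0154 and 0.0429), while its brightest had -0.093 and -0.058. The WT arrays of Psmc1 read 11.33, 11.28 and 11.39 at 2 h, 11.26, 11.30 and 11.26 at 6 h and 11.05, 10.78 and 10.68 at 24 h, against 11.80, 11.69, 11.69 and 11.70 untreated. Every treated array lay below every untreated one, with log2 changes of -0.38, -0.44 and -0.88 and limma adjusted p of 0.0114, 0.00277 and 5.98e-07. In D- cells at 24 h it read 11.55, 11.39 and 11.65, against 11.64, 11.64, 12.07 and 11.89 untreated. These groups overlapped, and the change of -0.28 ± 0.11 passed narrowly (limma adjusted p = 0.0469). The 2 h call in WT was lost without WT 2 h replicate 2.

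Psmc4, another ATPase, had the largest change of the ring in WT at 24 h, -1.01 ± 0.24 (limma adjusted p = 0.00121), with arrays at 12.19, 10.93 and 11.28, against 12.74, 12.51, 12.29 and 12.35 in untreated WT. The groups did not overlap, but replicate 1 lay far above the other 2 treated arrays, and the change was -0.44 in the set of 10 and -1.22 in the set of 16. In D- the change was -0.45 ± 0.24 (limma adjusted p = 0.159).

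Psmd11, a lid subunit, was lower in both lines at 24 h, by 0.57 ± 0.085 in D- and by 0.72 ± 0.085 in WT. Its D- change was -0.35 in the set of 10 and -0.73 in the set of 16. A dimmer probe set of Psmd11 was lower in D- at 6 h (-0.67, limma adjusted p = 0.000375), where the brightest had -0.055. Psmd1, a base scaffold subunit, was higher in D- at 2 h (0.51 ± 0.15, limma adjusted p = 0.0152) and lower in D- at 24 h (-0.52 ± 0.15, limma adjusted p = 0.00923). Its D- arrays read 12.86, 12.48 and 12.57 at 2 h and 11.88, 11.43 and 11.52 at 24 h, against 12.29, 12.06, 12.02 and 12.14 untreated, so the untreated arrays lay between the early and the late ones. The 2 h call was lost without D- 2 h replicate 1. In WT it was 0.22 at 2 h, which did not pass, and -0.88 ± 0.15 at 24 h, which did.

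Psmd8, a lid subunit, ran against the rest of the particle. Its D- arrays read 11.78, 11.73 and 11.70 at 2 h, 11.77, 11.73 and 11.72 at 6 h and 12.10, 11.94 and 11.86 at 24 h, against 11.48, 11.40, 11.35 and 11.30 untreated. Every treated D- array lay above every untreated one, and the changes were 0.35, 0.36 and 0.58, with limma adjusted p of 0.0491, 0.0356 and 0.00112. In WT it passed at 6 h (0.34, limma adjusted p = 0.04) and not at 24 h (0.22, limma adjusted p = 0.148). The 2 h and 6 h calls were each lost without several single arrays: each of the 7 D- arrays of the comparison in turn at 2 h, 6 of 7 in D- at 6 h, and 5 of 7 in WT at 6 h. All 3 were also lost with median centring, and the WT value at 6 h was 0.20 without WT 6 h replicate 1. Psmd4, a ubiquitin receptor of the particle, passed at no time in either line, and its 24 h changes were 0.037 ± 0.086 in D- and 0.011 ± 0.086 in WT.

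**Figure D3:**
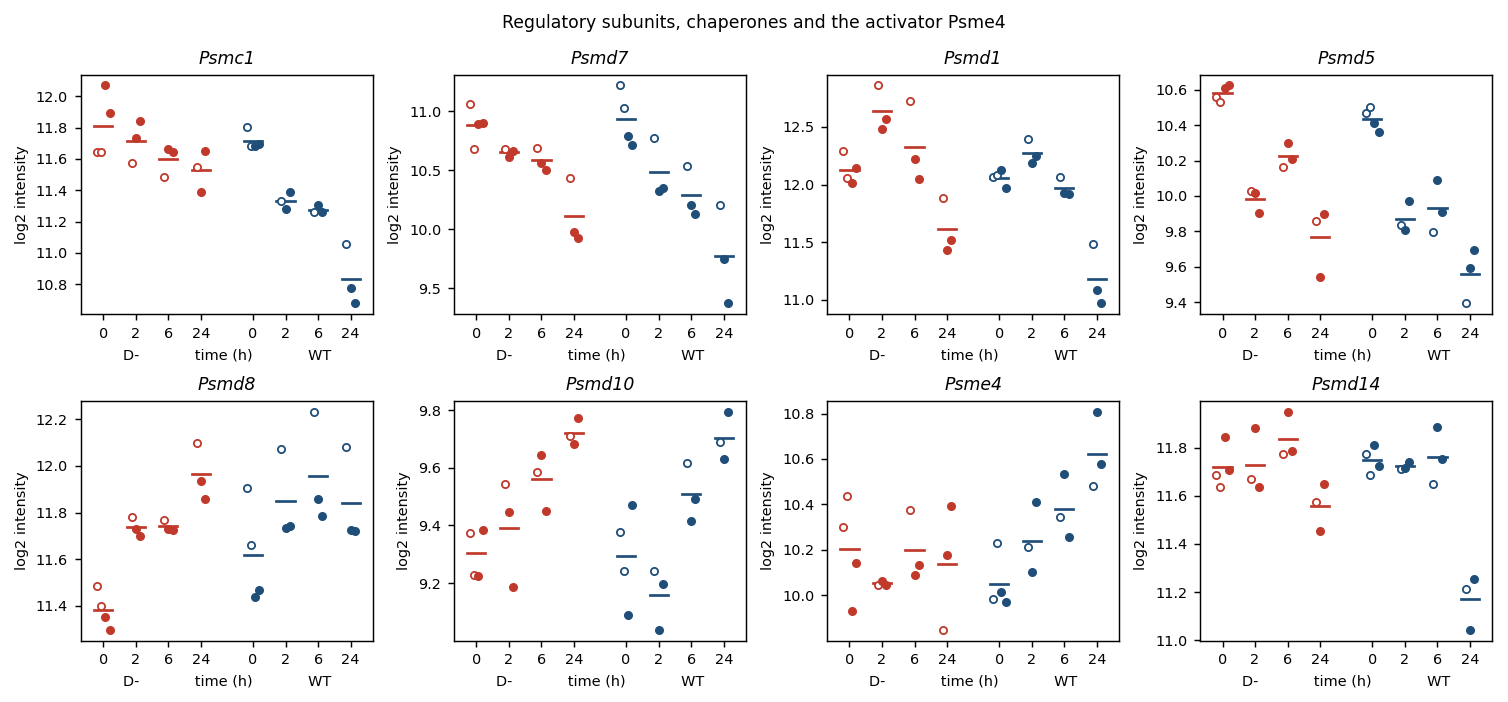
Log2 intensity of 8 regulatory members on every array, untreated (0) to 24 h from left to right, D- (red) left and WT (blue) right; bars are group means and open points the arrays of the set of 10. Psmc1 and Psmd14 separate at 24 h in WT more than in D-, Psmd5 is already lower at 2 h in both lines, Psmd8 and Psmd10 are higher at 24 h in D-, and Psme4 is higher at 24 h in WT alone by the test in each line.

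No immunoproteasome gene was lower at 24 h. At that time, 2 of the 4 genes tested were higher in each line, against 17.1% of all genes in D- and 26.4% in WT. The median log2 change of the 4 genes was 0.46 in D- and 0.46 in WT. The genes called differed in part: Psme1 and Psmb8 in D-, and Psme1 and Psmb10 in WT. At 2 h the same group had no gene higher, and 1, Psmb8, was lower in WT, against 13.9% of all genes. At 6 h the main fit called no gene of the group in either line. The 4 values at 6 h were all above 0 in WT (median 0.22), and 2 were above and 2 below 0 in D- (median -0.013). With other processing settings, calls at 6 h in WT were gained for Psme1 in 4 settings, Psmb10 in 2, and Psmb8 and Psmb9 in 1 each. None was gained at 6 h in D-.

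Psme1, a subunit of the interferon-inducible activator cap, was higher at 24 h in both lines. Its log2 intensity was 11.92, 11.84 and 11.77 in D- at 24 h, against 11.30, 11.61, 11.46 and 11.20 in untreated D-. In WT it was 12.37, 12.61 and 12.69 at 24 h, against 12.06, 12.19, 11.73 and 11.64 untreated. The groups did not overlap in either line. The change was 0.45 ± 0.13 in D- (limma adjusted p = 0.0108), a level 1.37 times that of untreated cells, and 0.65 ± 0.13 in WT (limma adjusted p = 0.000263), 1.57 times that of untreated cells. In the set of 10 the WT change was 0.24, and in the set of 16 it was 0.96.

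Psmb10, the inducible trypsin-like subunit, had log2 intensities of 10.46, 10.59 and 10.71 in WT at 24 h, against 10.14, 10.21, 9.51 and 9.35 in untreated WT. The untreated arrays split into 2 high and 2 low ones, which were those of the sets of 10 and 16, and all lay below the treated arrays. The change was 0.78 ± 0.27 (limma adjusted p = 0.0198), 0.28 in the set of 10 and 1.22 in the set of 16, and the call was lost without any 1 of 4 arrays (WT untreated replicates 3 and 4, WT 24 h replicates 2 and 3). In D- it read 9.82, 9.60 and 9.40 at 24 h, against 9.35, 9.11, 9.31 and 8.95 untreated, also without overlap, and the change of 0.43 ± 0.27 did not pass (limma adjusted p = 0.255).

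Psmb8, the inducible chymotrypsin-like subunit, was lower at 2 h in WT and higher at 24 h in D-. Its log2 intensity was 12.28, 12.18 and 12.25 in D- at 24 h, against 11.87, 11.68, 11.94 and 11.60 in untreated D-. The groups did not overlap, and the change was 0.47 ± 0.13 (limma adjusted p = 0.00618). In WT it read 11.94, 11.74 and 11.62 at 2 h and 12.31, 12.47 and 12.51 at 24 h, against 12.19, 12.22, 12.21 and 12.03 untreated. The 2 h arrays lay below and the 24 h arrays above all untreated ones. Only the 2 h change passed, at -0.40 ± 0.13 (limma adjusted p = 0.0239), and it was lost without any 1 of 4 arrays (WT untreated replicates 2 and 3, WT 2 h replicates 2 and 3). The 24 h change was 0.27 ± 0.13 (limma adjusted p = 0.0807).

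Psmb9, the inducible subunit that replaces Psmb6, passed in no comparison when the array set was left out of the fit. It read 10.67, 10.10 and 10.03 in D- at 24 h, against 10.10, 9.79, 9.74 and 9.50 in untreated D-. In WT it read 10.28, 9.83 and 10.12 at 24 h, against 10.66, 10.71, 9.88 and 9.89 untreated. Both pairs of groups overlapped, and the changes were 0.48 ± 0.26 in D- (limma adjusted p = 0.165) and -0.21 ± 0.26 in WT (limma adjusted p = 0.527). The array set mattered for this gene: with it as a block the D- change was 0.57 and passed (limma adjusted p = 0.00143), as did the 24 h response in D- minus that in WT (0.69, limma adjusted p = 0.0115). The D- change was 0.72 in the set of 10 and 0.44 in the set of 16, where it passed (limma adjusted p = 0.0131), whereas the WT change was -0.41 in the set of 10 and 0.086 in the set of 16. At 6 h in WT it passed in the set of 16 (0.41, limma adjusted p = 0.0198), with -0.27 in the set of 10. Psmb9 was not alone in this, since Psme1, Psmb8 and Psmb10 also gained calls at 6 h in WT in some settings, as counted above. Tap1, the peptide transporter gene that starts on the far side of the 225 bases printed above, changed by 1.0 in D- and 1.37 in WT at 24 h, with limma adjusted p of 0.00825 and 0.000273. At 6 h Tap1 changed by 0.78 in D- and 1.31 in WT, with limma adjusted p of 0.0378 and 0.000884, where Psmb9 had -0.21 and 0.053. The difference between the neighbours was not tested.

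**Figure D4:**
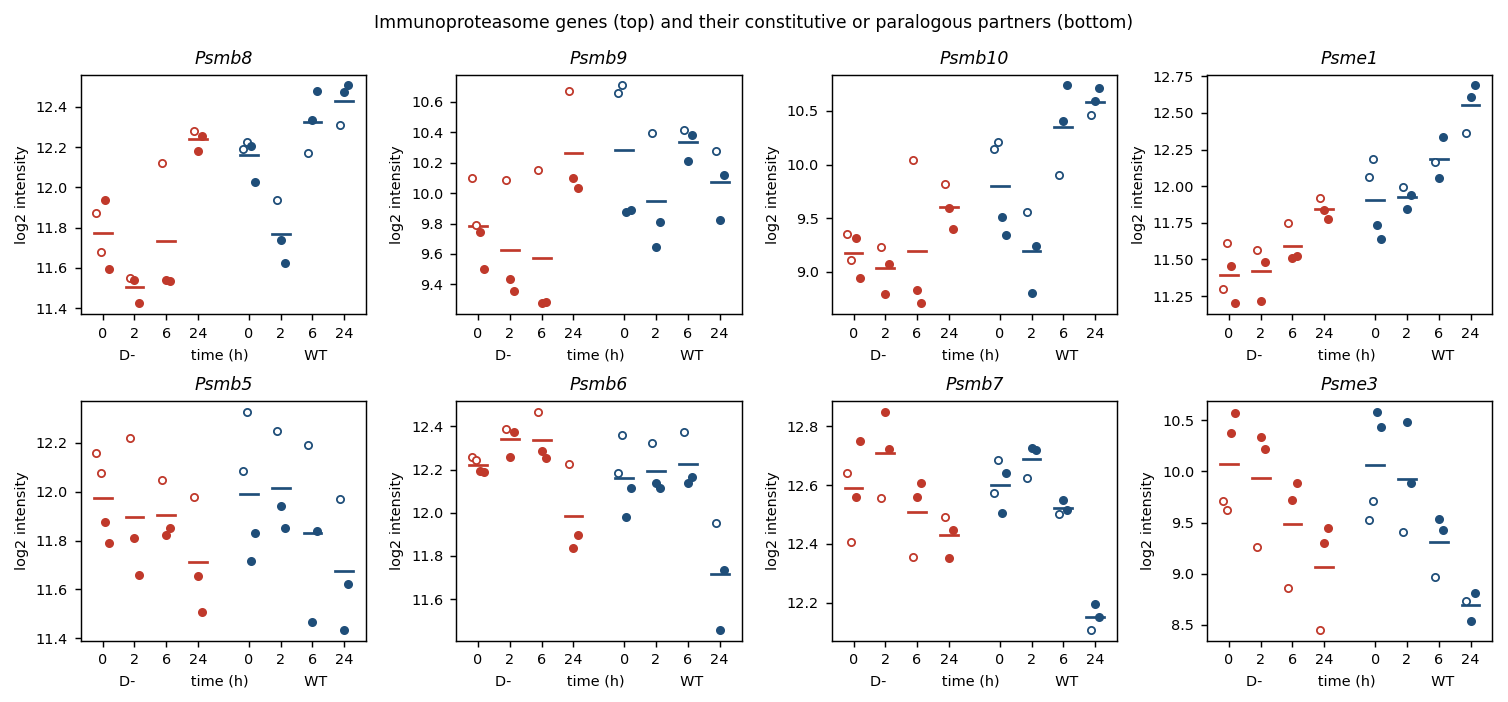
Log2 intensity of the immunoproteasome genes Psmb8, Psmb9, Psmb10 and Psme1 (top) and of Psmb5, Psmb6, Psmb7 and Psme3 (bottom) on every array, with D- (red) left and WT (blue) right and time from untreated (0) to 24 h; bars are group means and open points the arrays of the set of 10. Psme1 is above its untreated arrays at 24 h in both lines, whereas Psmb6 and Psmb7 are below theirs in WT, where Psme3 is lower as well.

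Each inducible subunit was also set against the constitutive subunit it replaces, as a log2 ratio on each array, in 21 tests with exact two-sided permutation. The ratio Psmb8 over Psmb5 averaged 0.53 ± 0.22 in D- at 24 h (SD, n = 3), against -0.20 ± 0.20 in untreated D- (SD, n = 4). Psmb9 over Psmb6 averaged -1.72 ± 0.16 in D- at 24 h, against -2.44 ± 0.22 untreated, and Psmb10 over Psmb7 averaged -2.82 ± 0.19, against -3.41 ± 0.27 untreated (SD, n = 3 and 4). All 3 ratios were higher at 24 h in D- with no overlap between arrays, by 0.73, 0.72 and 0.59, each at an exact permutation p of 0.0571, the smallest that 3 against 4 arrays allow. In WT at 24 h the differences were 0.58 and 0.23 for the first and second ratio, whose arrays overlapped, and 1.23 for Psmb10 over Psmb7, whose arrays did not (exact permutation p = 0.0571). With 3 against 4 arrays none of these could pass, and the Benjamini-Hochberg value for each of these 4 was 0.171. One ratio went the other way without overlap: Psmb8 over Psmb5 averaged -0.25 ± 0.053 in WT at 2 h, against 0.17 ± 0.25 in untreated WT (SD, n = 3 and 4), a difference of -0.42 at the same exact permutation p of 0.0571 and adjusted value of 0.171. The arrays overlapped in every remaining comparison, at 2 h, at 6 h and between the untreated lines, with Benjamini-Hochberg values of 0.171 to 1.0. The level of a ratio also depends on the 2 probe sets, so ratios are compared between groups and not between pairs.

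Before treatment few members differed between the lines. Among the 43 members, 1 was lower and none higher in untreated D- than in untreated WT, against 3.09% and 1.9% of all genes. That gene was Psme1, with 11.30, 11.61, 11.46 and 11.20 in untreated D- cells, against 12.06, 12.19, 11.73 and 11.64 in untreated WT cells on the log2 scale. The groups did not overlap, and the difference was -0.51 ± 0.12 (limma adjusted p = 0.0143). The call was lost in either array set alone and without D- untreated replicate 1 or 4 or WT untreated replicate 1 or 2. The other 3 immunoproteasome genes had values in the same direction that did not pass: -0.39 for Psmb8, -0.50 for Psmb9 and -0.62 for Psmb10, with limma adjusted p of 0.0612, 0.365 and 0.238. With the array set as a block, 3 of the 4 genes of the group were lower in D-, Psmb8 and Psmb9 being added at limma adjusted p of 0.0344 and 0.0122.

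The chaperones of the base moved in different directions. Psmd5 was the only member called in every treated comparison. Its D- arrays read 10.03, 10.02 and 9.90 at 2 h, 10.17, 10.30 and 10.21 at 6 h and 9.86, 9.54 and 9.90 at 24 h, against 10.56, 10.53, 10.61 and 10.62 untreated. Its WT arrays read 9.84, 9.81 and 9.97 at 2 h, 9.79, 10.09 and 9.91 at 6 h and 9.39, 9.59 and 9.70 at 24 h, against 10.47, 10.50, 10.41 and 10.36 untreated. Every treated array of either line lay below every untreated one. The log2 changes were -0.60, -0.35 and -0.81 in D- and -0.56, -0.51 and -0.88 in WT, with limma adjusted p between 1.24e-07 and 0.00703.

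Psmd9 was lower at 6 h in D- (-0.46 ± 0.13, limma adjusted p = 0.00973) and at 24 h in WT (-0.70 ± 0.13, limma adjusted p = 8.52e-05), whereas its 24 h change in D- was -0.21 (limma adjusted p = 0.223). With the array set as a block, Psmd9 was also lower at 2 h in D- (-0.32, limma adjusted p = 0.0233), and its 24 h responses differed between the lines (0.49, limma adjusted p = 0.0192). Psmd10, also known as gankyrin, was higher at 24 h in both lines. It read 9.71, 9.68 and 9.77 in D- at 24 h, against 9.37, 9.23, 9.23 and 9.38 in untreated D-, and 9.69, 9.63 and 9.79 in WT at 24 h, against 9.38, 9.24, 9.09 and 9.47 in untreated WT. No groups overlapped, and the changes were 0.42 ± 0.1 in D- (limma adjusted p = 0.00264) and 0.41 ± 0.1 in WT (limma adjusted p = 0.0016). It passed at 6 h in D- as well with the array set as a block (0.27, limma adjusted p = 0.0325).

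Among the other caps, Psme3 and Psme4 differed. Psme3 encodes the subunit of a nuclear activator cap, and its log2 intensity was 8.45, 9.30 and 9.45 in D- at 24 h, against 9.71, 9.62, 10.38 and 10.57 in untreated D-. In WT it was 8.74, 8.53 and 8.81 at 24 h, against 9.53, 9.71, 10.58 and 10.44 untreated. The arrays of the set of 10 were lower than the rest among untreated cells of both lines, and even so no treated array reached the untreated range. The change was -1.0 ± 0.34 in D- (limma adjusted p = 0.0275) and -1.37 ± 0.34 in WT (limma adjusted p = 0.00183), levels 0.499 and 0.386 times those of untreated cells. The WT change was -0.88 in the set of 10 and -1.84 in the set of 16. The D- call was lost with no filter on low values and without D- untreated replicate 3 or 4 or D- 24 h replicate 1, and the D- value was -0.56 as the mean of all probe sets of the gene (limma adjusted p = 0.0152). Psme3 was lower at 6 h too with the array set as a block, by 0.70 in D- and 0.88 in WT (limma adjusted p of 0.00209 and 0.000213). A dimmer probe set of Psme3 was higher in D- at 2 h (0.49, limma adjusted p = 0.0038) and lower in WT at 6 h (-0.52, limma adjusted p = 0.00153). At 24 h it had -0.81 in D- and -1.45 in WT, and these responses differed (0.64, limma adjusted p = 0.014). Another had 0.15 in D- and -0.089 in WT at 24 h, neither passing.

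Psme4, which encodes a large single-chain activator of the core, was higher at 24 h in WT alone among the tests within lines. It read 9.85, 10.18 and 10.39 in D- at 24 h, against 10.30, 10.44, 9.93 and 10.14 in untreated D-, and these groups overlapped. In WT it read 10.48, 10.81 and 10.58 at 24 h, against 9.98, 10.23, 10.01 and 9.97 untreated, without overlap. The change was -0.064 ± 0.13 in D- (limma adjusted p = 0.773) and 0.57 ± 0.13 in WT (limma adjusted p = 0.000928). In D- it was -0.52 in the set of 10 and 0.25 in the set of 16, neither passing, and in WT it was 0.38 in the set of 10 (limma adjusted p = 0.166) and 0.70 in the set of 16. It passed at 6 h in WT as well with the array set as a block (0.34, limma adjusted p = 0.0466). Psmf1, which encodes an inhibitor of the core particle, passed at no time in either line by its brightest probe set, with 24 h values of -0.31 in D- and -0.30 in WT. A dimmer probe set of Psmf1 was lower in WT at 2 h (-0.87, limma adjusted p = 0.0203), and another was higher in WT at 24 h (0.68, limma adjusted p = 0.0236).

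The responses of the lines were then compared by an interaction term, the log2 change in D- minus that in WT. No member passed at 2 or 6 h, when 0.242% and 0.592% of all genes did (0.0538% higher and 0.188% lower at 2 h, 0.148% higher and 0.444% lower at 6 h), and no member had an unadjusted limma p under 0.05 at either time. At 24 h, 4 members had a higher and 1 a lower response in D-, against 7.32% and 4.99% of all genes. Counted together this is 11.6% of the members, near the 12.3% of all genes. Of the 43 differences, 37 were above 0, with a median of 0.21, whereas the median over all tested genes was -0.0096. All 12 members lower in both lines had the smaller fall in D-. By the brightest probe sets the difference passed for Psmc1 alone among these 12. For the regulatory particle all 17 were above 0, with a median of 0.36, and 2 of them passed. The shares with a smaller fall or a value above 0 were not counted over all genes. Of all genes, 53.8% were called in WT at 24 h and 34.7% in D-. With the array set as a block, 11 members had a higher and 1 a lower response in D-, 7 of them in the regulatory particle.

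**Figure D5:**
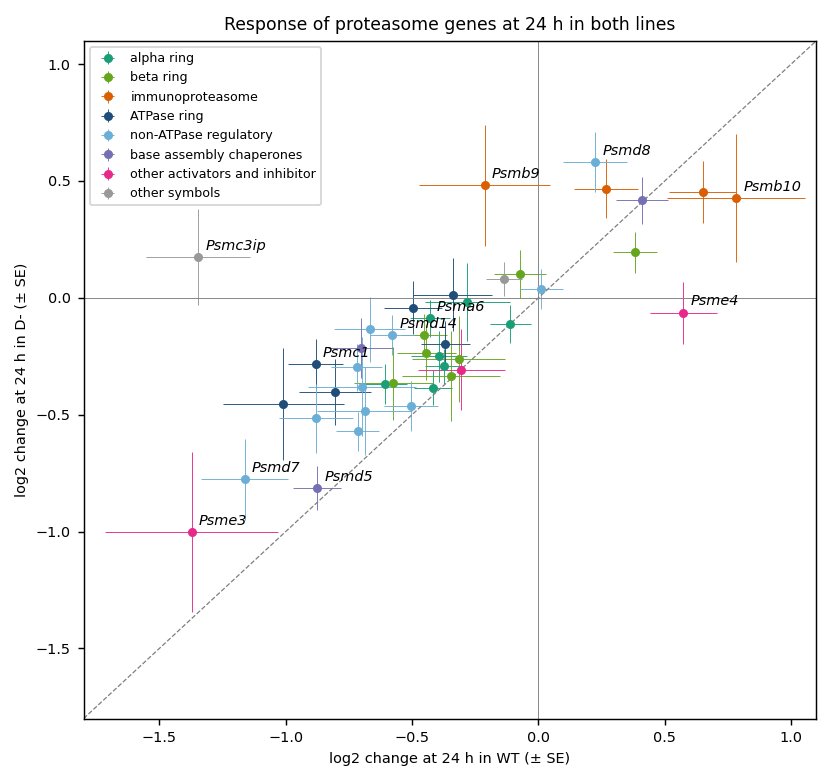
The log2 change at 24 h in D- (vertical) is plotted against that in WT (horizontal) for the 43 members, with SE bars, coloured by role; the dashed line marks equal change. All 12 members lower in both lines lie above the line, and Psme4 lies to the right of it.

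The regulatory genes with a different response were Psmc1, at 0.60 ± 0.15 (limma adjusted p = 0.0122), and Psmd14, at 0.42 ± 0.12 (limma adjusted p = 0.0274). The alpha ring gene Psma6 differed by 0.34 ± 0.11 (limma adjusted p = 0.0473), having changed by -0.088 in D- and -0.43 in WT. Psme4 was the 1 gene with a lower response in D-, by -0.64 ± 0.19 (limma adjusted p = 0.0283). These 4 calls were lost when the fit held only the groups compared. All but that for Psmc1 were also lost within the larger array set and without any 1 of several arrays. When single arrays were left out, the Psma6 call was kept only without D- 24 h replicate 2 or WT 24 h replicate 1. The Psma6 call was also lost with added quantile normalization, with median centring and as the mean of all probe sets. The Psmd14 call was lost with added quantile normalization, and the Psme4 call as the mean of all probe sets.

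Psmc3ip, which is no proteasome subunit, had the largest difference between the lines. It read 10.04, 9.23 and 9.59 in D- at 24 h, against 9.55, 9.23, 9.57 and 9.42 in untreated D-. In WT it read 8.83, 7.6 and 8.21 at 24 h, against 9.58, 9.66, 9.50 and 9.49 untreated. The D- groups overlapped and the WT groups did not. The change was 0.17 ± 0.2 in D- and -1.35 ± 0.2 in WT, a difference of 1.52 ± 0.29 (limma adjusted p = 0.00116). The WT change was -0.79 in the set of 10 and -1.59 in the set of 16. Psme3ip1 passed in neither line, with 0.08 in D- and -0.14 in WT at 24 h.

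Genes that work with the proteasome were counted from lists of related genes. Of 10 assembly and associated genes tested, 3 were lower and none higher at 24 h in D- (median log2 change -0.31), and 6 were lower and none higher in WT (median -0.78), where 17.6% of all genes were lower in D- and 27.5% in WT. In WT these were the core assembly chaperones Psmg1 (-1.07), Psmg2 (-1.32), Psmg3 (-0.75) and Psmg4 (-0.81) and the proteasome-bound deubiquitinases Uchl5 (-1.0) and Usp14 (-1.07). Pomp, which matures the core particle, had -0.019 in WT (limma adjusted p = 0.899). All 3 ubiquitin shuttle genes tested were lower at 24 h in both lines.

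Of 11 class I antigen processing genes tested, 6 were higher and none lower at 24 h in D- (median 0.44), against 17.1% and 17.6% of all genes. In WT 7 were higher and none lower (median 0.95), against 26.4% and 27.5% of all genes, among them Tapbp (1.24 in D- and 1.97 in WT) and B2m (0.44 in D- and 0.62 in WT). Of 8 genes tested that act in proteasome gene transcription, 3 were lower and 1 higher in D- at 24 h, and 2 were lower and 1 higher in WT, where the share lower is near the 27.5% of all genes. Nfe2l1, the activator of subunit genes named above, had -0.49 in D- and -0.054 in WT at 24 h, with limma adjusted p of 0.00645 and 0.775.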

How the data were processed

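The authors summarised each probe set on each array by GCRMA (per the submitters' processing notes, which give no version) and deposited linear intensity values between 2 and 83530.7. These were taken to log2 with no further scaling. Probe sets at log2 5 (intensity 32) or more on at least 3 arrays were kept, 12724 in all. One limma fit (version 3.58.1 in R 4.3.3) held the 8 groups of line and time, with 18 residual degrees of freedom, and gave 10 comparisons. P-values were adjusted over all probe sets kept, and each gene is represented by its brightest probe set.

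Groups and replicate numbers came from the labels. Exact permutation tests compared subunit ratios. The number of arrays limits the precision. In simulated data, 100 of 12724 probe sets were changed by 0.5 on the log2 scale, 100 by 1, and the rest not at all. The fit for WT at 24 h recovered 31% of the changes of 0.5 and 80% of those of 1, with 3 false calls. The line difference at 24 h recovered 11% and 44%, with 2 false calls. In the data 53.8% of all genes were called in WT at 24 h. The simulated shares are therefore not the sensitivity of the counts above.

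The members and lists were chosen with earlier results of these data known. Genes named are the immunoproteasome genes, their partners, the caps and chaperones, and the 4 largest called rises and falls per comparison; others were named after their values were seen. Alternatives changed the scaling, filter, weights, groups fitted, blocks, probe set rule and arrays included.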

Additional observations from a re-analysis of the deposited data

Results flagged for a closer look

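In groups of 4 arrays, 8 of 86 sets of member values had 1 array far from the other 3, where chance gives about 1 in 20, or 4.3. On the log2 scale, untreated D- cells had a high value of 13.2 for Psma1 in replicate 3 and of 11.64 for Psmc5 in replicate 1, and low values of 13.15 for Psma3 in replicate 1 and 12.44 for Psmb3 in replicate 4. Untreated WT cells had high values of 12.21 for Psmb1 in replicate 2, 11.8 for Psmc1 in replicate 1 and 10.23 for Psme4 in replicate 2, and a low value of 12.03 for Psmb8 in replicate 4.

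For 9 member comparisons the lines differed, either because the limma interaction passed or because all treated arrays of D- lay on the opposite side of their untreated mean from those of WT. The interaction passed for 5 at 24 h: Psmc3ip (1.52), Psmc1 (0.597), Psmd14 (0.419) and Psma6 (0.342), with a higher response in D-, and Psme4 (-0.638), with a lower one. The arrays went opposite ways, and the limma interaction did not pass, for Psmc3 (0.203, adjusted p = 0.999) and Psme4 (-0.344, adjusted p = 0.996) at 2 h. The same held for Psmb9 (0.695, adjusted p = 0.251) and Psme3ip1 (0.215, adjusted p = 0.198) at 24 h.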

How the results depend on the processing

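Over the named genes and settings, 3341 values kept their side of the threshold, 127 lost a call and 66 gained one. No value that passed in either setting changed sign, but 265 of the 3534 values compared, which passed in neither, did so, in 78 of 176 gene comparisons, such as Psmb9 in WT at 24 h (-0.21 with all arrays, 0.086 in the set of 16). The causes of the changes below were not tested. Counts of members called are given for D- at 2, 6 and 24 h (3, 3 and 16), WT at 2, 6 and 24 h (4, 8 and 31), untreated D- against WT (1) and the line difference at 2, 6 and 24 h (0, 0 and 5). Leaving out 1 array gave 1 to 2, 1 to 3 and 12 to 19 in D-, 1 to 6, 4 to 7 and 29 to 33 in WT, 0 to 2 between untreated lines, and 0, 0 and 2 to 10 for the line difference. Within the set of 10 arrays, which holds fewer arrays, D- had 0, 0 and 2, WT had 0, 1 and 10, untreated lines 0 and the line difference at 24 h 0. Within the set of 16, D- at 6 h had 9, WT at 6 h 14, untreated lines 0 and the line difference at 6 h 1. With the array set as a block, D- at 6 h had 7, WT at 2 and 6 h 8 and 13, untreated lines 3 and the line difference at 24 h 12. Array weights gave 10 and 25 for D- at 6 and 24 h, 18 for WT at 6 h, 2 between untreated lines and 13 for the line difference at 24 h. Fitting only the groups compared gave 5 for WT at 6 h, 0 between untreated lines and 1 for the line difference at 24 h. The mean of all probe sets gave 7 for D- at 6 h and 2 between untreated lines, and added quantile normalization gave 3 for the line difference at 24 h. The deviations of same-numbered arrays correlated at 0.194 to 0.655 for replicate 1 (median 0.389) and -0.468 to 0.454 for replicate 2 (median 0.164). The range was 0.0294 to 0.415 for replicate 3 (median 0.244), and the 1 pair of replicate 4 had 0.274. Arrays of different numbers correlated at -0.586 to 0.516, with a median of -0.205, below each same-number median. Not every same-numbered pair lay above 0.1, so the main fit did not take the numbers as pairs. A replicate block gave 8 for D- at 6 h, 10 for WT at 2 h, 2 between untreated lines and 10 for the line difference at 24 h. The sample sizes of 3 and 4 limit the ratio tests, which could not pass, and dim probe sets such as that of Psma8 have no usable signal.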
